A study of Mus musculus with 6 samples.

Results

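Fam46a, Fam46b, Fam46c and Vwde were followed in the forelimb ectoderm of mouse embryos with and without Sp8. They are 4 of the 49452 genes in the deposited table and were picked by symbol: the 3 Fam46 genes as a family, and Fam46a and Vwde because their transcripts were almost absent from the Sp8 null. That choice used the comparison of the genotypes, so for Fam46a and Vwde the difference is described and not tested. Fam46b and Fam46c were taken for their name alone.

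The series holds 6 RNA libraries of the ectoderm, the epithelial sheet over the limb bud, at stage E10.5. For each library, 1 embryo gave the ectoderm of its 2 forelimbs, freed with trypsin and forceps. The 3 wild-type embryos came from matings within the inbred C57BL/6 strain, and the 3 Sp8 null embryos, identified by PCR, from matings between carriers of an Sp8 allele labelled Sp8-Cre-ERT2. All libraries carry the strain label C57BL6J, and no agent was given to either group. The null and wild-type embryos were therefore not littermates, and cross and genotype cannot be told apart. Sp8 is a zinc finger transcription factor of the Sp family, needed in the limb ectoderm for the apical ridge, the signalling rim that drives outgrowth of the limb.

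The Fam46 genes, now also called Tent5, encode non-canonical poly(A) polymerases that lengthen the poly(A) tails of messenger RNAs in the cytoplasm, above all those of secreted proteins. Fam46a acts in bone-forming cells on collagen transcripts, and its loss causes a form of brittle bone disease in people. Fam46b is known from early embryonic and stem cells, and Fam46c from plasma cells and red cell precursors. Vwde encodes a secreted protein with a von Willebrand factor type D domain and EGF-like repeats, and its salamander counterpart is expressed in, and needed for, the regenerating limb.

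The 3 polymerase genes are related in sequence but can be told apart by reads. In the GENCODE annotation of the GRCm38 assembly, Fam46a lies on chromosome 9 (85320439 to 85327348, minus strand), with a coding sequence of 1341 bases in 3 exons. Fam46b lies on chromosome 4 (133480132 to 133487938, plus strand), with 1281 coding bases, and Fam46c on chromosome 3 (100451628 to 100489324, minus strand), with 1173 coding bases. Vwde lies on chromosome 6 (13156299 to 13224965, minus strand) and is much longer, with 5319 coding bases in 29 coding exons. Identity over the aligned coding bases was 69.0% between Fam46a and Fam46b, 71.2% between Fam46a and Fam46c and 67.5% between Fam46b and Fam46c. The longest identical run in these alignments was 24 bases, and no stretch of 50 bases was shared between annotated transcripts of any of these pairs. No exon of another annotated gene overlaps those of the 4 genes on either strand. The best conserved stretch of 60 coding bases is shown because it is where a read could most easily be given to the wrong gene. It ends in the codons of the pair of acidic residues known to be needed for catalysis by Fam46c, at codons 73 to 92 of Fam46c, and capitals mark bases that differ from Fam46a.
Fam46a: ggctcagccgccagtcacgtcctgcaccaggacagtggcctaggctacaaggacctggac
Fam46b: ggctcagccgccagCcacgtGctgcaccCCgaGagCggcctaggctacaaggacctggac
Fam46c: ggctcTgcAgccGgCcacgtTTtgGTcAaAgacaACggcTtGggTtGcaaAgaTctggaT
Even here Fam46b differed from Fam46a at 6 of the 60 bases and Fam46c at 19.

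Sp factors are known to bind GC boxes and the related GT boxes, so the DNA before each start site was read for both. The windows, from RefSeq on GRCm38.p6, run from 250 bases before to 50 bases after the annotated start, and 27025 genes have one. The 4 genes matched by their current symbols. The motifs were picked after the windows had been read, and each was searched on both strands. The GC box was taken as GGGCGG. For the GT box the letters GGTGTGG were used. The TATA box was searched as TATAAA. The core bound by many homeodomain factors was searched as TAATTA. The parts that lie before every annotated start are printed to set the 2 genes that were almost absent in the null beside the 2 others, with matches in capitals.
Fam46a, chr9:85327349-85327400, minus strand: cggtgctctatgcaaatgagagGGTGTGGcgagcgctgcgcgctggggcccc
Vwde, chr6:13224966-13225215, minus strand: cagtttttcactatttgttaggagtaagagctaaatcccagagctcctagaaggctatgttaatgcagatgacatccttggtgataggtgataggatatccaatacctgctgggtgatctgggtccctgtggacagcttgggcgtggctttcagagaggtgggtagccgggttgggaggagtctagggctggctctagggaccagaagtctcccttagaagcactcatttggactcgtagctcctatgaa
Fam46b, chr4:133479883-133480131, plus strand: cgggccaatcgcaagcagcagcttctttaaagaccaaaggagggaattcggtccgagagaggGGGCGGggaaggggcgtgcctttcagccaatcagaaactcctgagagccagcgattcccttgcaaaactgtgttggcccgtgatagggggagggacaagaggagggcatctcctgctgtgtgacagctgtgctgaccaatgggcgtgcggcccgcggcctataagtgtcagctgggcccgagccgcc
Fam46c, chr3:100489325-100489442, minus strand: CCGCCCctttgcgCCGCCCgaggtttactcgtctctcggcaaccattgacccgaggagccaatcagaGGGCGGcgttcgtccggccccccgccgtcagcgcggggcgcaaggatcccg
The window of Fam46a, taken at the RefSeq start at base 85327150, held 2 GC boxes, 1 GT box (at -228) and 1 TATA box. A second RefSeq start of Fam46a, at base 85327124, gives a window with 2 GC boxes and 1 TATA box but not the GT box. That of Fam46b held 1 GC box and that of Fam46c held 7, while the Vwde window held none of the 4 motifs. Of all windows, 35.9% held a GC box, 7.69% a GT box, 14.2% a TATA box and 5.31% the homeodomain core. The window of Fam46a was 70.3% G or C with 42 CpG, and that of Vwde was 51% with 3 CpG, the medians over all windows being 52.7% and 7. The 2 genes that were almost absent in the null therefore start from windows of unlike base composition. A match is a run of letters and not a shown site. Only these exact letters were searched, so near forms, such as the gggcgtggc printed for Vwde, were not counted. The lack of a match therefore does not show the lack of a site.

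The libraries followed their labels. The levels below are in FPKM, fragments scaled to transcript length and to the mapped total of the library, as the authors deposited them. Sp8 was at 8.35, 10.97 and 13.5 FPKM in wild-type embryos 1, 2 and 3 and at 0.766, 0.460 and 1.14 FPKM in Sp8 null embryos 1, 2 and 3. Depth is known only relative to wild-type embryo 1 and ranged from 0.842 to 1.03. Surface ectoderm markers summed to 564 to 604 FPKM in wild type and 498 to 595 FPKM in Sp8 null, with all 12 tested and 1 called in each direction (Tfap2a higher, Epcam lower), against 1.68% and 5.15% of all tested genes. Epcam was called in 5 of 13 alternatives and lost its call without any 1 library other than Sp8 null embryo 3 (limma adjusted p from 0.0585 to 0.132). Tfap2a was called in 8 of 13 and lost its call without wild-type embryo 1, 2 or 3 (limma adjusted p = 0.0608, 0.056 and 0.0546). The erythroid markers stood apart in wild-type embryo 1, with a sum of 428 FPKM against 11.7 and 36.7 FPKM in the other wild-type libraries and 62.9 to 164 FPKM in Sp8 null. Limb mesenchyme markers summed to 28.3 to 54.0 FPKM in wild type and 24.8 to 103 FPKM in Sp8 null, endothelial markers to 2.05 to 2.97 and 2.51 to 4.37 FPKM, and macrophage markers to 0 to 0.826 and 1.03 to 1.78 FPKM. Of the erythroid, endothelial and mesenchyme markers 6, 1 and 5 passed the filter and 0 were called (limma, with 1 mesenchyme marker at an unadjusted p under 0.05), and no macrophage marker passed it. Without Sp8 null embryo 2 the mesenchyme marker Pdgfra was called lower (limma adjusted p = 0.000412). With all libraries its log2 difference was -1.15, and 2 of the 5 tested mesenchyme markers were lower in the null. The endothelial marker Cdh5 was listed at 0 in the 3 wild-type libraries. The tissue is bulk ectoderm, so fewer cells that express a gene and less RNA per cell cannot be told apart for any gene below.

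Fam46a was the most abundant of its family in the wild-type ectoderm. It stood at 12.98, 14.4 and 14.8 FPKM in wild-type embryos 1, 2 and 3. In Sp8 null embryos 1, 2 and 3 it stood at 0.0948, 0.136 and 0.109 FPKM. All 3 null libraries were low, and the lowest wild-type value was 95.5 times the highest null value. Groups without overlap were found in 29.8% of all tested genes, and 21.1% had the null lower, a contrast that the choice of Fam46a already used. The group means were 14.1 ± 0.956 and 0.113 ± 0.0210 FPKM (SD, n = 3 each), so the null held 0.804% of the wild-type level. The difference was -3.76 on the log2(FPKM + 1) scale, a scale that understates the change of a gene whose lower level is under 1, and -6.06 with a pseudocount of 0.1 in place of 1.

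Vwde, the secreted protein gene, followed the same pattern at a slightly lower level. Its values were 12, 10.6 and 11.6 FPKM in wild-type embryos 1, 2 and 3. In Sp8 null embryos 1, 2 and 3 they were 0.164, 0.0597 and 0.131 FPKM. The groups were again far apart, the lowest wild-type value being 64.8 times the highest null value. The means were 11.4 ± 0.702 and 0.118 ± 0.0533 FPKM (SD, n = 3 each), and the null held 1.04% of the wild-type level. The difference was -3.47 on the log2(FPKM + 1) scale and -5.75 with a pseudocount of 0.1. The ratio of Vwde to Fam46a lay between 0.736 and 0.924 in the wild-type libraries and between 0.439 and 1.73 in the null libraries, where both levels were low.

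**Figure D1:**
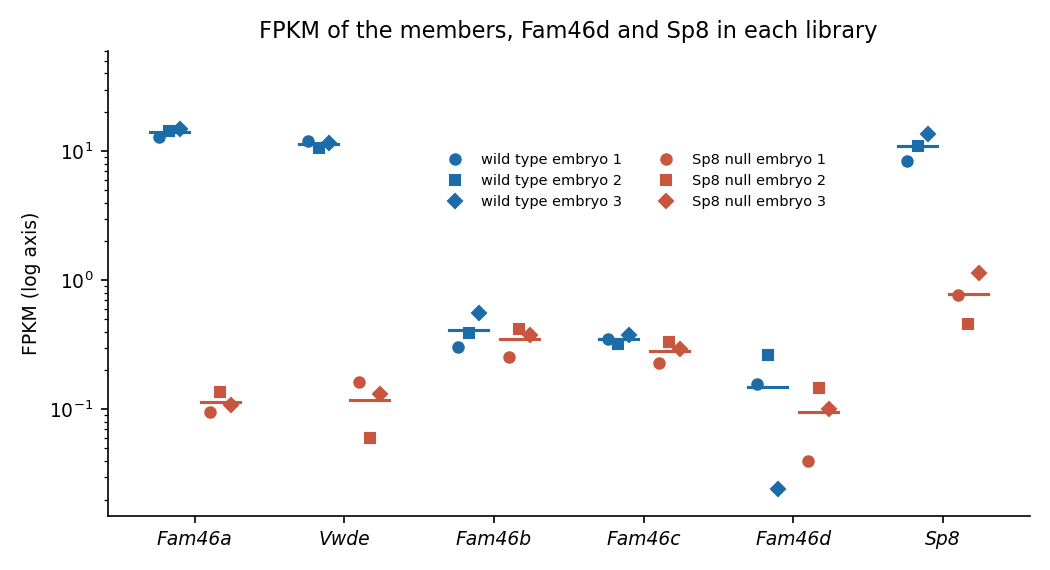
FPKM on a log axis of the 4 genes, of Fam46d and of Sp8 in each library, with circles, squares and diamonds for embryos 1, 2 and 3, wild type in blue and Sp8 null in red, and lines at the group means. Fam46a and Vwde drop from above 10 FPKM to below 0.2 FPKM in every null library, while the points of Fam46b, Fam46c and Fam46d overlap between the genotypes below 1 FPKM.

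In transcript level the losses of Fam46a and Vwde were deeper than that of Sp8 itself, whose null mean was 7.20% of wild type. Whether the Sp8 reads left in the null stand for intact transcript was not tested. The rule that chose Fam46a and Vwde set no numeric limit. Of the 7357 genes whose wild-type mean reached 5 FPKM, 8 (0.109%) kept under 2% of that mean in the null, as the comparison that chose the 2 genes shows. Next below them was Fgf4, a ridge growth factor, at 0.351%, and next above was Gpx2, a glutathione peroxidase, at 1.33%. Among 1410 tested genes whose wild-type mean lay within 1.25-fold of that of Fam46a, the median null level was 93.7% of wild type, and 4 were under 10%. Among 1487 genes within 1.25-fold of Vwde the median was 94.7%, and 8 were under 10%.

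The wild-type levels of both genes were steady from embryo to embryo, a measure that the choice of the genes did not rest on. The SD was 6.80% of the mean for Fam46a and 6.16% for Vwde. Genes of similar level had a median of 7.49% around Fam46a and 7.96% around Vwde, and 614 of 1410 and 499 of 1487 of them were steadier. Neither gene was therefore unusual in its spread. Their wild-type means were higher than those of 68.1% and 62.5% of the tested genes.

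Read depth behind these values can be judged from the authors' deposited table, which also lists group means on a normalized scale of read counts. In the authors' deposited table the means were 3030 in wild type and 24.6 in Sp8 null for Fam46a, and 2499 and 26.7 for Vwde. The residual null signal therefore rested on few normalized reads per library. One unit of these means corresponded to 0.00464 FPKM of Fam46a in wild type and 0.00459 FPKM in the null, so the deposited means of that gene and its FPKM give the same contrast. For Vwde the corresponding values were 0.00456 and 0.00443 FPKM. Its signed fold score, also from the authors' deposited table, was -70.4 for Fam46a and -21.8 for Vwde, while the deposited means stood in ratios of 123 and 93.6.

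Fam46b and Fam46c were expressed at far lower levels, and neither passed the filter for testing, a value of at least 1 FPKM in at least 3 libraries. Of the 4 genes, Fam46a and Vwde passed it, through their wild-type libraries alone. Fam46b was at 0.302, 0.389 and 0.553 FPKM in wild-type embryos 1, 2 and 3. In Sp8 null embryos 1, 2 and 3 it was at 0.253, 0.422 and 0.373 FPKM. The groups overlapped, with means of 0.415 ± 0.127 and 0.349 ± 0.0869 FPKM (SD, n = 3 each). On the log2(FPKM + 1) scale Fam46b differed by -0.07 (exact two-sided permutation p = 0.5; with 3 libraries against 3 no p can be below 0.1). In a fit over all 27766 genes above 0 in any library the 95% interval of that difference ran from -0.29 to 0.16 (limma, Benjamini-Hochberg adjusted p = 0.764).

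Fam46c showed a similar low level. It was at 0.348, 0.322 and 0.375 FPKM in wild-type embryos 1, 2 and 3. In Sp8 null embryos 1, 2 and 3 it was at 0.230, 0.332 and 0.295 FPKM. Null embryo 2 lay above wild-type embryo 2, so the groups overlapped, and the means were 0.348 ± 0.0263 and 0.286 ± 0.0517 FPKM (SD, n = 3 each). The difference was -0.07 on the log2(FPKM + 1) scale (exact two-sided permutation p = 0.2), with a 95% interval from -0.20 to 0.06 in the fit with no filter (limma, Benjamini-Hochberg adjusted p = 0.652). In that fit 1.23% of genes were called at an adjusted p under 0.05, and in 19.3% the groups did not overlap. Neither Fam46b nor Fam46c was among either. Their intervals on this compressed scale do not show that the levels were equal. In the authors' deposited table the means were 35.4 and 30.4 for Fam46b (p = 0.581) and 76.9 and 64.1 for Fam46c (p = 0.308), wild type first.

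Fam46c is a gene of red cell precursors, and the libraries differed in erythroid signal. Wild-type embryo 1, with the erythroid sum of 428 FPKM, had 0.348 FPKM of Fam46c, between the other 2 wild-type libraries. Without that library the difference of Fam46c was again -0.07.

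Fam46d, the remaining member of the family, is X-linked and is known from testis. It was at 0.158, 0.262 and 0.0243 FPKM in wild-type embryos 1, 2 and 3. In Sp8 null embryos 1, 2 and 3 it was at 0.0397, 0.145 and 0.10 FPKM, and the groups overlapped. Its mean FPKM was 0.148 in wild type and 0.095 in the null, while in the authors' deposited table the means were 2.93 in wild type and 4.26 in the null, the opposite order. These values rest on a few reads, and no direction can be read from them.

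In wild-type ectoderm the order of the family was thus Fam46a far above Fam46b, Fam46c and Fam46d. The ranges of Fam46b and Fam46c overlapped in wild type, so their order is not resolved, and in the null Fam46a lay below both in every library. Summed over the 4 Fam46 genes, the level was 13.8, 15.4 and 15.7 FPKM in wild-type embryos 1, 2 and 3 and 0.617, 1.03 and 0.877 FPKM in Sp8 null embryos 1, 2 and 3. Fam46a supplied 93.7% to 94.1% of that sum in wild type and 12.4% to 15.4% in the null. The sum of Fam46b and Fam46c was 0.650, 0.711 and 0.928 FPKM in wild type and 0.483, 0.754 and 0.668 FPKM in Sp8 null, for embryos 1, 2 and 3. These ranges overlapped. No null library held a Fam46b and Fam46c sum above the highest wild-type one. Sp8 null embryo 2 lay above wild-type embryos 1 and 2, and Sp8 null embryo 3 above wild-type embryo 1. Whether either gene makes up for the loss of Fam46a was not tested.

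**Figure D2:**
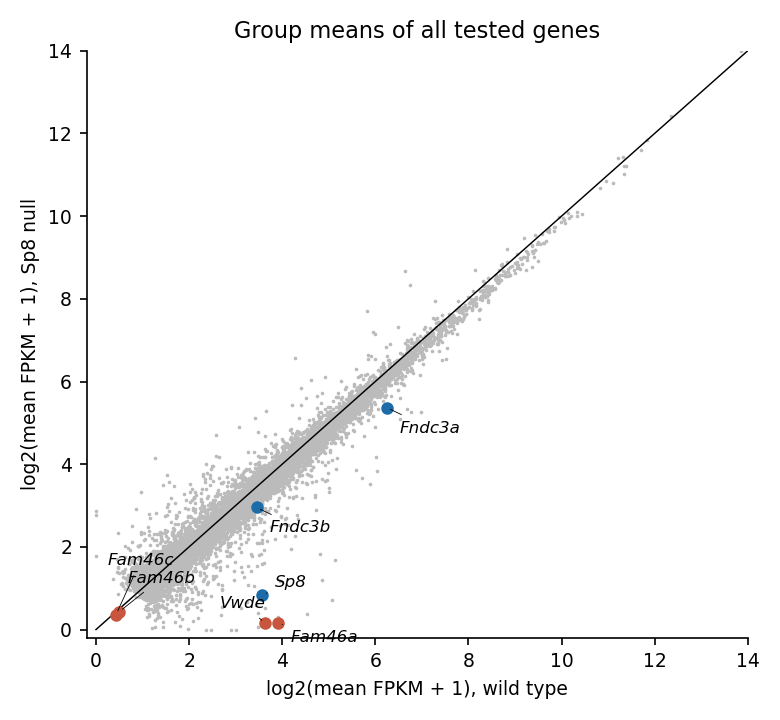
Mean FPKM plus 1 on a log2 scale in wild type (x axis) and Sp8 null (y axis) for tested genes in grey (5 genes lie beyond the axes), with the 4 genes in red, and Sp8 and the Fam46c partners Fndc3a and Fndc3b in blue. Fam46a and Vwde lie near 0 on the y axis, and Fam46b and Fam46c lie close to the line of equal levels.

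The genes whose values over the 6 libraries lay nearest to those of Fam46a and Vwde were found by Euclidean distance of log2(FPKM + 1) among all tested genes. Nearest to Fam46a were Rspo2, a secreted enhancer of Wnt signalling, at a distance of 0.349, Vwde at 0.554 and Fgf4 at 0.798. Nearest to Vwde were Fgf4 at 0.464, Fam46a at 0.554 and Rspo2 at 0.596. Rspo2 was at 14, 15.1 and 12.8 FPKM in wild-type embryos 1, 2 and 3 and at 0.276, 0.252 and 0.154 FPKM in Sp8 null embryos 1, 2 and 3. The distance joins genes of like level as well as of like change, and these 4 genes share both. Fam46a and Vwde were chosen for their loss in these same libraries, so their nearness to each other and to other lost genes partly follows from that choice.

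Poly(A) tails are also set by other enzymes, and none of those tested was called. Of 10 canonical poly(A) polymerases and other terminal nucleotidyltransferases, 9 were tested and 0 were called at a limma Benjamini-Hochberg adjusted p under 0.05, against 6.83% of all tested genes, with 4 at an unadjusted p under 0.05, as were 24.02% of all tested genes. Those 4, named after their values were seen, had lower values in the null with groups that did not overlap. Of all tested genes, 21.1% had such groups with the null lower. They were Papd5 (log2 difference -0.31, limma adjusted p = 0.0683) and Papd7 (-0.32, 0.062), which add tails in the nucleus, Mtpap (-0.27, 0.197), the mitochondrial poly(A) polymerase, and Tut1 (-0.33, 0.14), which adds uridines to a spliceosomal RNA. The list's median log2 fold change over the 9 tested genes was -0.08, that of all tested genes being -0.06, and single values ran from -0.33 to 0.22. Papola, the main nuclear poly(A) polymerase, was at 176 ± 13.9 FPKM in wild type and 177 ± 17.3 FPKM in Sp8 null (SD, n = 3 each). For Zcchc11, which adds uridines to RNA ends, the wild-type mean was 42.2 ± 3.96 FPKM against 49.4 ± 5.85 FPKM, with a log2 fold change of 0.22 (limma adjusted p = 0.266).

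Genes that shorten or bind the tail gave 1 call among 26 tested of 27, and 2 with median-of-ratios or upper-quartile scaling, where Noct was called as well. Btg2, an antiproliferative protein that recruits the deadenylase complex, rose from 3.45, 3.20 and 3.38 FPKM in wild-type embryos 1, 2 and 3 to 5.91, 6.77 and 6.97 FPKM in Sp8 null embryos 1, 2 and 3 (log2 difference of 0.80 ± 0.09 SE, limma adjusted p = 0.00383). Its groups did not overlap, and calls in this direction made up 1.68% of all tested genes. The list's median log2 fold change was -0.04. Pabpc1, the main cytoplasmic poly(A)-binding protein, had a mean of 1296 ± 85.1 FPKM in wild type against 1027 ± 84.5 FPKM in the null (SD, n = 3 for either; log2 difference -0.34, limma adjusted p = 0.0678). Pabpn1, its nuclear counterpart, had means of 129 and 111 FPKM, a log2 difference of -0.20 (limma adjusted p = 0.285).

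Both genes for proteins reported to bind Fam46c fell. Fndc3a and Fndc3b encode fibronectin type III domain proteins of the endoplasmic reticulum. Fndc3a was at 74.5, 77.3 and 72.5 FPKM in wild-type embryos 1, 2 and 3 and at 42.5, 33.6 and 44.9 FPKM in Sp8 null embryos 1, 2 and 3 (log2 difference of -0.88 ± 0.11 SE, limma adjusted p = 0.00453). Fndc3b had 10.2, 10.6 and 9.04 FPKM in the wild-type embryos, in the same order, against 6.55, 6.35 and 7.33 FPKM in the null ones (log2 difference of -0.50 ± 0.09 SE, limma adjusted p = 0.0235). Lower calls made up 5.15% of all tested genes, and a list of 2 genes allows no statement beyond the genes themselves. The call of Fndc3b was lost without Sp8 null embryo 1 (limma adjusted p = 0.0712), Sp8 null embryo 2 (0.0753), wild-type embryo 1 (0.0792) or wild-type embryo 2 (0.12), and that of Fndc3a was lost in none of the 13 alternatives, its adjusted p running from 0.00242 to 0.0334.

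Since loss of Fam46a causes brittle bone disease, the other genes of that disease and of closely related syndromes were read as a list. Of 22 genes 17 were tested, and 4 of them fell while none rose, which is 23.5% against 5.15% of all tested genes that fell. Serpinh1, the collagen chaperone, fell from 103, 99.8 and 89.5 FPKM in wild-type embryos 1, 2 and 3 to 55.8, 59.2 and 64.5 FPKM in Sp8 null embryos 1, 2 and 3 (log2 difference of -0.69 ± 0.08 SE, limma adjusted p = 0.00413). Ppib, a prolyl isomerase, fell from a mean of 38.6 ± 2.84 FPKM to 21.4 ± 1.82 FPKM (SD, n = 3 each), a log2 difference of -0.82 (limma adjusted p = 0.00258). Mesdc2, a chaperone of Wnt co-receptors, fell from a mean of 40.4 ± 2.53 FPKM to 24.3 ± 1.11 FPKM, a log2 difference of -0.71 (limma adjusted p = 0.00221).

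P4hb, a disulfide isomerase and subunit of collagen prolyl hydroxylase, fell from a mean of 147 ± 12.7 FPKM to 106 ± 5.41 FPKM (SD, n = 3 each), a log2 difference of -0.47 (limma adjusted p = 0.018). Its call was lost without Sp8 null embryo 1 (limma adjusted p = 0.0644), Sp8 null embryo 2 (0.0567), wild-type embryo 1 (0.0686) or wild-type embryo 2 (0.0935). Serpinh1, Ppib and Mesdc2 were called in all 13 alternatives. The list's median log2 fold change was -0.15, and 16 of the 17 tested values were negative, as were 61.3% of all tested genes. Col1a2, a chain of type I collagen whose transcripts Fam46a is known to act on in bone, was at 12.8 FPKM in wild type and 10.7 FPKM in the null, with overlapping groups (log2 fold change -0.26, limma adjusted p = 0.611). It was chosen for naming after its values were seen, as was Tpbg below. Limb mesenchyme, which also makes collagen, had its highest marker sum (103 FPKM) in Sp8 null embryo 2. Its part in these values was not tested.

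**Figure D3:**
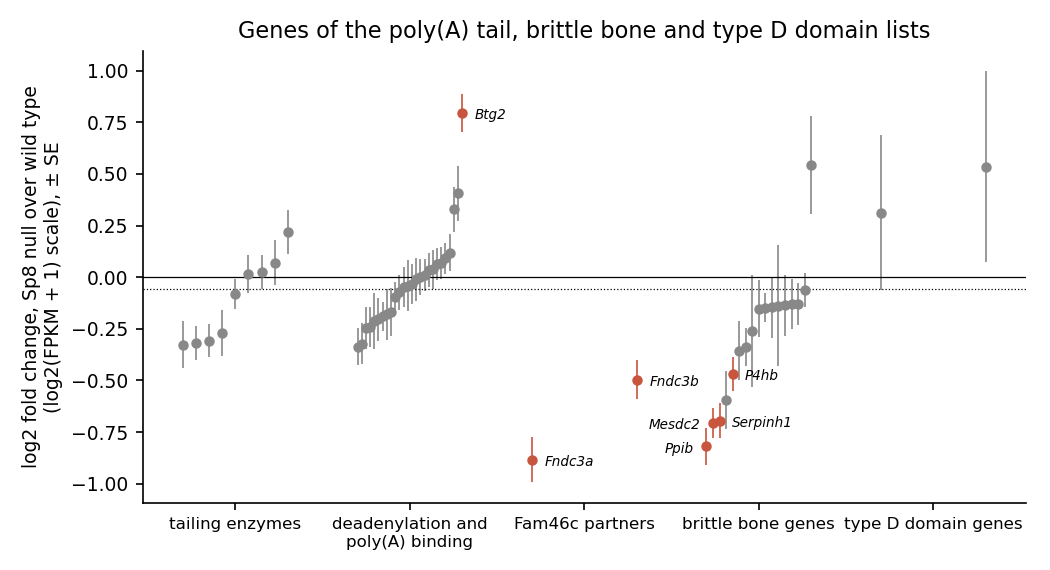
Log2 fold change of Sp8 null over wild type with its standard error for each tested gene of the 5 lists, ordered by value within a list, with calls at a limma adjusted p under 0.05 in red and the median of all tested genes as a dotted line. Fndc3a, Fndc3b, Ppib, Mesdc2, Serpinh1 and P4hb are the lower calls and Btg2 is the one higher call.

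Vwde had little company among genes with a von Willebrand factor type D domain. Of 16 other genes, 2 were tested and neither was called (limma, Benjamini-Hochberg adjusted p, with 0 at an unadjusted p under 0.05). Kcp, a secreted BMP regulator, was at 2.15, 0.257 and 1.16 FPKM in wild-type embryos 1, 2 and 3 and at 0.863, 4.68 and 1.46 FPKM in Sp8 null embryos 1, 2 and 3 (log2 fold change 0.54, limma adjusted p = 0.534). Its groups overlapped. Kcp had the highest value of the list in any library, 4.68 FPKM, below the lowest wild-type value of Vwde. Fcgbp followed in wild type with 0.905 FPKM and was under the filter.

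Neighbouring genes were read to see how far along the chromosome the loss reached. Within 1 Mb of the start of Fam46a 4 genes were tested and 2 were called, both lower, where 5.15% of all tested genes were called lower. So few neighbours allow no statement on the region. Ibtk, an inhibitor of Bruton tyrosine kinase, starts 422 kb away and fell from 17, 20.4 and 18.1 FPKM in wild-type embryos 1, 2 and 3 to 13.9, 13.3 and 14.1 FPKM in Sp8 null embryos 1, 2 and 3 (log2 difference of -0.40 ± 0.08 SE, limma adjusted p = 0.0366). Tpbg, a membrane glycoprotein that inhibits Wnt signalling, starts 515 kb away, and fell from a mean of 7.41 ± 0.569 FPKM to 5.05 ± 0.277 FPKM (SD, n = 3 each), a log2 difference of -0.48 (limma adjusted p = 0.0251). On the other side the nearest tested gene was the noncoding Gm28625, which was not called (limma adjusted p = 0.253) and was at 0 in 2 null libraries.

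Neither call held throughout the alternatives. Ibtk passed the threshold in 2 of 13 alternatives, and leaving out any 1 library ended its call, the limma adjusted p then being between 0.0563 and 0.142. Tpbg passed in 7 of 13. Its call was lost without Sp8 null embryo 1 (limma adjusted p = 0.0723), Sp8 null embryo 2 (0.0797), wild-type embryo 2 (0.123) or wild-type embryo 3 (0.0779).

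Within 1 Mb of the start of Vwde 7 genes were tested and 1 was called, lower, beside the same 5.15% of all tested genes. The nearest on either side were not: Tmem106b, a lysosomal membrane protein gene, at 8.15 FPKM in wild type and 9.84 FPKM in Sp8 null (log2 difference 0.24, limma adjusted p = 0.166), and Tmem168 at 4.17 and 3.56 FPKM (-0.19, limma adjusted p = 0.36). Gpr85, an orphan receptor gene that starts 615 kb away, fell from 1.40, 1.33 and 1.88 FPKM in wild-type embryos 1, 2 and 3 to 0.382, 0.40 and 0.587 FPKM in Sp8 null embryos 1, 2 and 3 (log2 difference of -0.80 ± 0.13 SE, limma adjusted p = 0.0161). It was chosen for naming after its values were seen. Its call was lost without Sp8 null embryo 1 (limma adjusted p = 0.0566) and with no filter on low values (0.0648). Gpr85 passed the filter through its wild-type libraries alone, and without any 1 of these it fell under the filter.

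**Figure D4:**
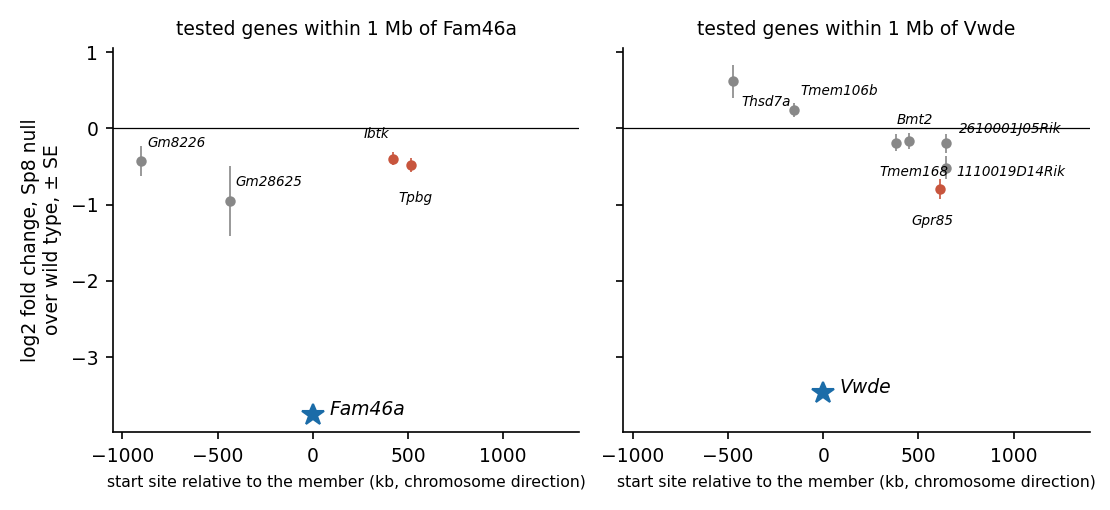
Log2 fold change with its standard error of every tested gene whose start lies within 1 Mb of the start of Fam46a (left) or Vwde (right), against distance in kb, with calls in red and the member itself as a star. No neighbour comes near the -3.76 of Fam46a or the -3.47 of Vwde.

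The sample names start with 4 for embryo 1 of each genotype and with 5 for the other embryos, and what the number stands for is not stated. Within the libraries named with 4, 1 of each genotype, the log2 difference was -3.67 for Fam46a, -3.48 for Vwde, -0.06 for Fam46b and -0.13 for Fam46c. Within those named with 5, 2 of each, it was -3.80, -3.46, -0.07 and -0.04. The contrast of Fam46a and Vwde was of similar size in either set. Both genes were chosen for their loss in these same libraries, so this is no test of the number.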

How the data were processed

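Polyadenylated RNA of 6 forelimb ectoderm samples was sequenced; the library kit, per the labels, was TruSeq v2. The authors deposited 1 table with FPKM and a status for each of 49452 genes and library, on gene models of Ensembl build 87 per the file headers. TopHat2, Cufflinks, SAMtools, FastQC, DESeq2 and the build GRCm38 are named in the submitters' processing notes, with no role stated. Depth in reads is not given, and relative depth was taken from the commonest ratio of low values between libraries. The authors' deposited table also holds group means (a signal on a normalized scale of counts), a signed fold change score and a p-value, whose test and adjustment are not given in the sources used here. The columns headed control and sample were read as wild type and null, respectively.

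For all genes, log2(FPKM + 1) was fitted with limma 3.58.1 (R 4.3.3) with genotype as the only term and a mean-variance trend, over the 12133 genes that reached 1 FPKM in 3 or more libraries. P-values are two-sided, adjusted by Benjamini-Hochberg over all tested genes, and calls are at an adjusted p under 0.05. Of the tested genes 9 had a failed estimate in a library and were kept. Fam46b and Fam46c, under the filter, were tested with exact permutation (SciPy 1.17.1). The script for the fit was tested on simulated data. Scaling factors came from the genes that pass the filter; they had first been taken from all genes, and this was changed after those results were seen, so both are given. Genes were matched by Ensembl identifier to GENCODE M21 (49109 of 49452), which also filled missing symbols, and coding sequences were aligned with Biopython 1.88. The members and gene lists were chosen with earlier results of these data known. Named genes are the members, Fam46d, Sp8, up to 6 called genes and the 2 most abundant of each list, the nearest tested neighbours of Fam46a and Vwde, and the 3 nearest genes by distance. P-values measure the spread between these embryos, whose litters the labels do not give. Alternatives were another pseudocount, no filter, median-of-ratios and upper-quartile scaling, each library left out, a replicate block, the number that opens each sample name as a covariate, and failed estimates left out.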

Additional observations from a re-analysis of the deposited data

How the results depend on the processing

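For Fam46a and Vwde, whose choice fixed the direction, the alternatives bear on the size of the difference alone. With 1 library left out, Fam46a ranged from -3.81 to -3.72 and Vwde from -3.52 to -3.43 on the log2 scale. Leaving out a wild-type library put both under the filter, so for those 3 fits a filter of 2 libraries was used, chosen after seeing the data. Fam46c ranged from -0.10 to -0.04 with 1 library left out, and Fam46b from -0.12 to 0.0026. Fam46b changed direction, to 0.0026, without wild-type embryo 3. Neither gene passed a threshold in the alternatives that gave a p-value. Those tested by permutation could not have done so with so few libraries. The fit with no filter gave a limma adjusted p of 0.764 for Fam46b and 0.652 for Fam46c. No p-value was computed for them with the leading number as a covariate. Scaling moved the median of all genes by 0.06 (median of ratios) or 0.08 (upper quartile).

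The number of called genes, 829 with 24.6% higher, was 342 with no filter, 545 with the leading number as a covariate, and from 213 (without wild-type embryo 2) to 665 with 1 replicate left out. The share of calls that were higher was 37.4% with median-of-ratios scaling and 42.0% with upper-quartile scaling. With factors taken from all genes, the definition used first, median-of-ratios scaling gave 857 calls, 32.3% higher, and upper-quartile scaling 777 calls, 34.2% higher. The share was 41.3% without wild-type embryo 1 and went the other way, to 14.6%, without Sp8 null embryo 3. The cause was not tested. No pairing by embryo number was seen: deviations from the group means correlated by -0.16, -0.14 and -0.07 between libraries with equal numbers. With the embryo number as a replicate block there were 328 calls, and the differences were -3.76 for Fam46a, -3.47 for Vwde, -0.07 for Fam46b and -0.07 for Fam46c, as without it. Under this block Fndc3b and P4hb were no longer called (limma adjusted p = 0.104 and 0.0961). They were also lost with no filter on low values (limma adjusted p = 0.0673 and 0.0661).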

Other observations

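In the list of brittle bone genes, 2 transcription factor genes under the filter also had groups that did not overlap, named after their values were seen. Creb3l1, which drives secretory pathway genes in bone, was at 0.710, 0.642 and 0.952 FPKM in wild-type embryos 1, 2 and 3 and at 0.0809, 0.0771 and 0.0763 FPKM in Sp8 null embryos 1, 2 and 3. Sp7, a factor of bone-forming cells and a relative of Sp8, was at 0.484, 0.280 and 0.276 FPKM in wild type and at 0.0308, 0.0684 and 0.0169 FPKM in Sp8 null. In 19.3% of genes with no filter the groups did not overlap.

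Neighbours of Fam46b and Fam46c were read against the 6.83% of all tested genes that were called. Within 1 Mb of Fam46b 38 genes were tested and 1 was called, Nudc, a dynein-associated protein gene, which fell from a wild-type mean of 39.4 ± 2.59 FPKM to a null mean of 31.4 ± 1.09 FPKM (SD, n = 3 for either), a log2 difference of -0.32 (limma adjusted p = 0.0443). Within 1 Mb of Fam46c 7 were tested and 1 was called, Igsf3, an immunoglobulin superfamily gene, which rose from a mean of 7.80 ± 0.504 FPKM to 10.3 ± 0.658 FPKM, a log2 difference of 0.36 (limma adjusted p = 0.049). Both passed in 4 of 13 alternatives, and leaving out any 1 library ended either call (limma adjusted p from 0.0542 to 0.168 for Nudc and from 0.0725 to 0.158 for Igsf3). Both were named after their values were seen.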
